A study of Mus musculus with 6 samples.

Results

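The genes described here are the 4 mouse Argonautes, Ago1, Ago2, Ago3 and Ago4, together with Dicer1, Drosha, Dgcr8, Xpo5 and Tarbp2, which make and load the small RNAs that Argonautes carry. They were taken by name, and all 9 were found among the 24255 rows of a table of FPKM values (fragments per kilobase of transcript, scaled to the number of mapped fragments). The table came from GV-stage fully-grown oocytes (FGOs), that is, oocytes at the germinal vesicle stage. WT FGOs (n = 3 libraries) were compared with Lsm14b-KO FGOs (n = 3 libraries), to ask how the maternal transcriptome differs when LSM14B, an RNA-binding protein of the oocyte, is missing. The KO mice were homozygous for Lsm14b tm1a(KOMP)Mbp, a knockout-first allele made by inserting a reporter cassette, on a C57BL/6J background. The allele was carried in the germline, so the insertion was not limited to the oocyte. Mice of either genotype were primed with 5 IU of PMSG, and after 46 h 20 oocytes were lysed for each library. The animals' age was not given for these libraries, nor whether the libraries came from separate animals, so p-values measure only the spread between these libraries.

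Small RNA silencing is built on Argonaute proteins, which hold a short guide RNA and use it to find matching transcripts. In the microRNA branch, Drosha and its RNA-binding partner DGCR8 cut the hairpin out of the primary transcript in the nucleus, exportin-5 (Xpo5) carries it to the cytoplasm, and Dicer with its partner TARBP2 (Tarbp2) releases the mature duplex. Mouse oocytes also make endogenous small interfering RNAs (endo-siRNAs) from long duplex RNA, which need Dicer and Argonaute 2 but not Drosha or DGCR8, and they express a shortened form of Dicer that starts in a retrotransposon inside the gene. Argonaute 2 is the mouse Argonaute with slicing activity, and microRNA silencing is known to be weak in mouse oocytes.

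Dicer1 was the most abundant of the 9 transcripts and rose in Lsm14b-KO FGOs, from 19.1 ± 4.51 to 81.8 ± 49.4 FPKM (SD, n = 3 each). Ago2, the most abundant Argonaute in WT FGOs, fell from 2.36 ± 0.635 to 0.508 ± 0.266 FPKM. Tarbp2 was measured at 2.01 ± 0.537 FPKM in WT and 1.35 ± 0.532 FPKM in Lsm14b-KO FGOs, and its groups overlapped. The other 6 genes stayed under 1 FPKM in every library and were not tested. Ago2 and Dicer1 passed an adjusted p of 0.05 in limma on log2(FPKM + 1), where 21.6% of the 6398 genes that reached 1 FPKM in at least 1 library did so. That share was 6.38% for genes higher and 15.2% for genes lower in Lsm14b-KO FGOs. The WT and Lsm14b-KO values did not overlap for Ago2 and Dicer1, as for 45.0% of the tested genes. In pooled oocytes, fewer oocytes with a transcript and less of it per oocyte cannot be told apart.

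**Figure D1:**
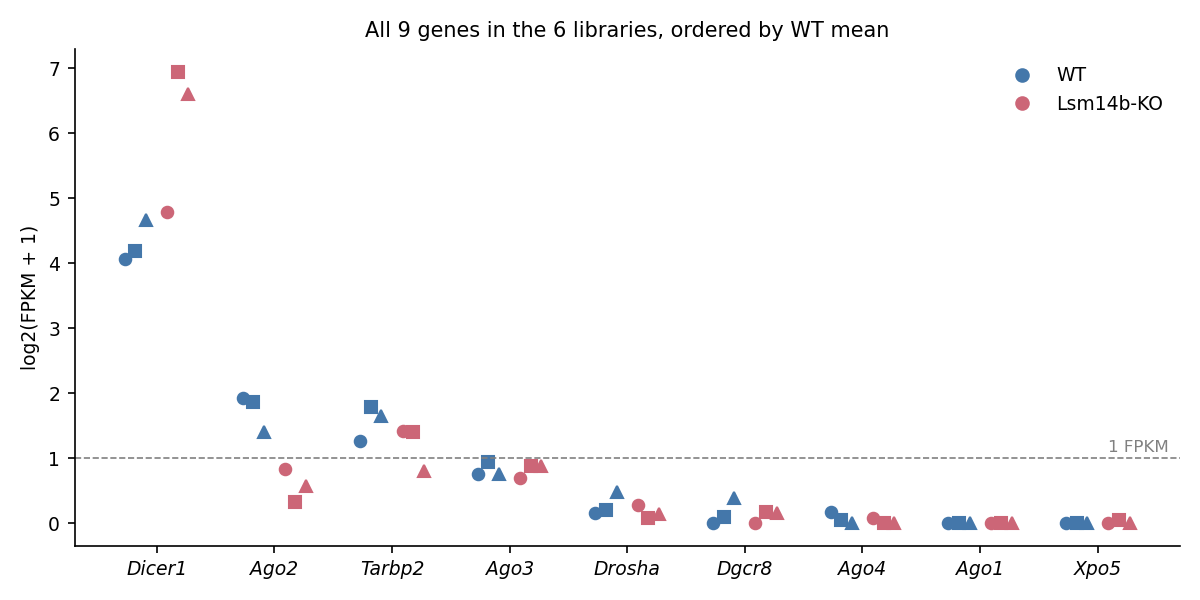
Level of the 9 genes on the log2(FPKM + 1) scale in each of the 6 libraries, ordered from left to right by mean WT level. Circles, squares and triangles are replicates 1, 2 and 3, WT in blue and Lsm14b-KO in red, and the dashed line marks 1 FPKM. Dicer1 stands above all other genes in every library, Ago2 has all 3 WT points above the line and all 3 Lsm14b-KO points below it, and the 5 genes on the right lie nearest to 0.

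The targeted gene followed the labels. Lsm14b was at 2.78, 3.98 and 1.72 FPKM in WT replicates 1 to 3, and Lsm14b-KO replicates 1 to 3 had listed values of 0, 0 and 0.102 FPKM (log2 fold change −1.85, SE 0.252, limma adjusted p = 0.0038). Sequencing depth was estimated from the FPKM worth of a lone fragment at 3.74 to 4.28 (WT) and 4.97 to 8.08 (Lsm14b-KO), in units of 1e6 mapped fragments. The FPKM values summed, in units of 1e6, to 1.14 to 1.24 in WT libraries, and to 1.03, 0.565 and 0.677 in Lsm14b-KO replicates 1 to 3, so replicates 2 and 3 stood apart from the rest. Over all tested genes, on log2(FPKM + 1), Lsm14b-KO replicate 1 had a Pearson r of 0.952 to 0.954 with the WT libraries. With Lsm14b-KO replicates 2 and 3 its r was 0.917 and 0.96. All 8 oocyte markers reached 1 FPKM, with summed levels of 6671 to 8669 FPKM in WT and 6456 to 8616 FPKM in Lsm14b-KO libraries, though Oog1 was listed at 0 in 3 of the 6. The largest part of that sum in most libraries was Oosp1, at 4926 to 5800 FPKM in WT and 4840, 1846 and 3640 FPKM in Lsm14b-KO replicates 1 to 3. Bmp15, Nlrp5, Zp1, Zp2 and Zp3 were, like Dicer1, highest in Lsm14b-KO replicates 2 and 3. Bmp15, an oocyte growth factor, was at 183 to 380 FPKM in WT and at 204, 1482 and 612 FPKM in Lsm14b-KO replicates 1 to 3. Of 11 cumulus and granulosa markers, 5 (Amh, Cyp11a1, Foxl2, Inhba and Ptx3) were at 0 in all libraries, and the list summed to 9.73 to 13.6 FPKM in WT and 6.14 to 10.1 FPKM in Lsm14b-KO libraries. Cyp19a1, the aromatase of granulosa cells, was the highest of them, at 8.26 to 11.5 FPKM in WT and 3.00 to 5.76 FPKM in Lsm14b-KO libraries, Fshr (the FSH receptor) lay between 0.349 and 2.08 FPKM, and Inha (the inhibin alpha chain) reached 1.06 FPKM in Lsm14b-KO replicate 3. All 6 blood cell markers were at 0, and none of 5 theca and stroma markers reached 1 FPKM. The part of the cumulus and granulosa signal, of the shift among oocyte markers, or of depth, in the results on Dicer1 and Ago2 was not tested.

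Nuclear processing was at the edge of what these libraries could count. Drosha, the nuclear ribonuclease that opens the microRNA pathway (chromosome 15, 12824815 to 12935291, plus strand, mm10), was at 0.116, 0.153 and 0.395 FPKM in WT replicates 1 to 3 and at 0.219, 0.0597 and 0.107 FPKM in Lsm14b-KO replicates 1 to 3. The highest value was in WT and the lowest in Lsm14b-KO FGOs, but the groups overlapped. These values stood for an estimated 2.0 to 6.9 fragments per library, and Drosha was not tested. Dgcr8, the RNA-binding partner of Drosha (chromosome 16, 18253948 to 18289246, minus strand), had listed values of 0, 0.0712 and 0.308 FPKM in WT and of 0, 0.130 and 0.117 FPKM in Lsm14b-KO libraries. A library of each genotype held none of it. Its row shared a deposited locus with Trmt2a on the opposite strand and with 2 microRNA genes, Mir1306 and Mir3618, and whether the libraries kept strand is not stated, so its few fragments are uncertain. Xpo5, the export receptor for hairpin precursors (chromosome 17, 46202782 to 46243598, plus strand), was listed at 0 in 5 libraries and at 0.0373 FPKM, about 1 fragment, in Lsm14b-KO replicate 2.

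A listed 0 is weak evidence in this table. Of 88 ribosomal protein symbols, which include paralogs with narrow expression, 14 were also at 0 in at least 1 library.

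Dicer1, the cytoplasmic ribonuclease shared by the microRNA and endo-siRNA branches, lies on the minus strand of chromosome 12 (104687742 to 104751952) and overlaps no other annotated gene. It was at 15.8, 17.2 and 24.2 FPKM in WT replicates 1 to 3 and at 26.7, 122 and 96.4 FPKM in Lsm14b-KO replicates 1 to 3. All 3 Lsm14b-KO values lay above all 3 WT values, but replicate 1 exceeded the highest WT library only slightly, while replicates 2 and 3 were several times higher. In estimated fragments, this was 583 to 916 per WT library, and 1306, 8750 and 7671 in the Lsm14b-KO libraries, so counting error was small beside the spread between libraries. The log2 fold change was 1.81 (SE 0.546, 95% interval 0.55 to 3.07, limma adjusted p = 0.0496), and the exact two-sided permutation test over the 6 libraries gave p = 0.10, the smallest it can give.

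The rise of Dicer1 was close to the threshold. Its adjusted p was 0.167, 0.152 and 0.117 without WT replicates 1, 2 and 3, and 0.120 and 0.170 without Lsm14b-KO replicates 2 and 3. Leaving out Lsm14b-KO replicate 1 instead gave 0.000693, with a log2 fold change of 2.47 (SE 0.246). The direction was the same in all 15 alternatives run, and 7 of them kept the adjusted p under 0.05. Because the groups did not overlap, leaving out a library, or changing the pseudocount, filter, trend or block, could not reverse the direction. Its constancy under those settings therefore adds no support. The libraries with the highest Dicer1 were those with the lowest FPKM sums. Every Lsm14b-KO sum was below every WT sum, so dividing by the sum (TPM scaling) could only enlarge the rise. It gave a log2 fold change of 2.49 (limma adjusted p = 0.0419). Whether the library totals had a part in the rise was not tested.

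The rows of the table are whole genes. Fragments from the shortened oocyte Dicer transcript and from the full-length transcript therefore add to the same value and were not separated here.

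Tarbp2, which binds duplex RNA beside Dicer (chromosome 15, 102518192 to 102523676, plus strand), did not pass the test. It was at 1.41, 2.46 and 2.14 FPKM in WT and at 1.66, 1.66 and 0.737 FPKM in Lsm14b-KO replicates 1 to 3. WT replicate 1 was lower than Lsm14b-KO replicates 1 and 2, so the groups overlapped. The log2 fold change was −0.37 (SE 0.250, 95% interval −0.94 to 0.21, limma adjusted p = 0.297), and the exact two-sided permutation test gave p = 0.30. With TPM scaling it was 0.06, so no direction is given. The short Tarbp2 transcript gave an estimated 8.1 to 18.3 fragments per library, and 2 processed copies elsewhere in the genome (Gm18561 and Gm18584) are near-identical to it, so its reads could have been split between loci.

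**Figure D2:**
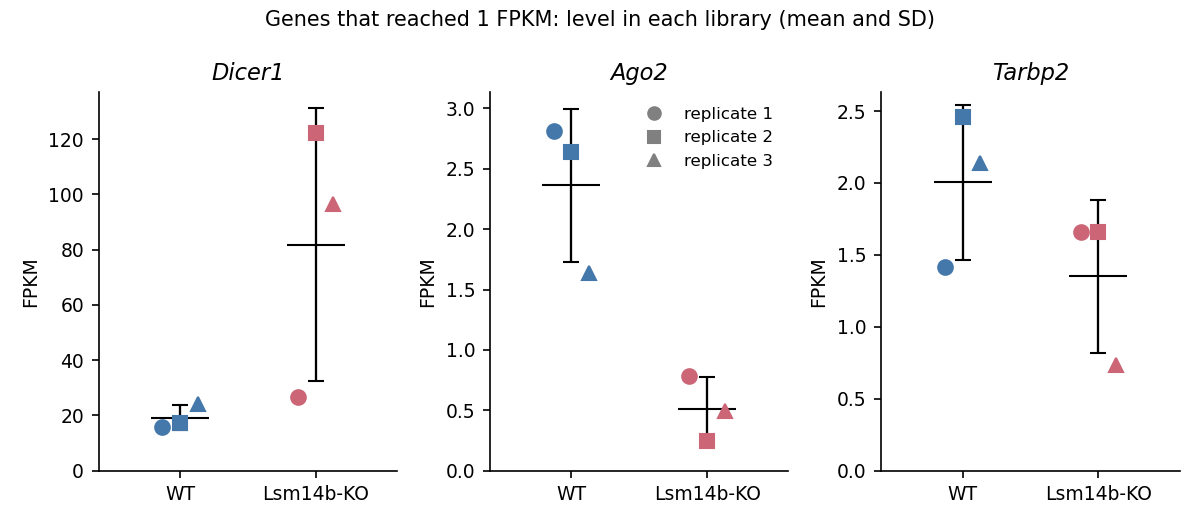
Level in FPKM (linear axis from 0) of the 3 genes that reached 1 FPKM, in WT (blue) and Lsm14b-KO (red) libraries. Circles, squares and triangles are replicates 1, 2 and 3, the horizontal lines are means and the bars are SD (n = 3). Dicer1 of Lsm14b-KO replicate 1 sits at 26.7 FPKM, next to the WT libraries and far below replicates 2 and 3, whereas all 3 Ago2 values of Lsm14b-KO FGOs lie under the WT values.

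Among the Argonautes, Ago2 (chromosome 15, 73095844 to 73184935, minus strand) was at 2.81, 2.64 and 1.64 FPKM in WT replicates 1 to 3 and at 0.781, 0.249 and 0.493 FPKM in Lsm14b-KO replicates 1 to 3. Every Lsm14b-KO library was below every WT library. Only the WT libraries brought Ago2 past the filter of 1 FPKM, so its place among the tested genes was itself set by the group in which it was high. In estimated fragments, the WT libraries held 84.4, 90.6 and 50.4, and the deeper Lsm14b-KO libraries held 31.1, 14.5 and 31.9. The log2 fold change was −1.15 (SE 0.234, 95% interval −1.69 to −0.61, limma adjusted p = 0.0147), and the exact two-sided permutation test gave p = 0.10, the smallest it can give. Since the scale is log2(FPKM + 1), this understates the change, and the ratio of the Lsm14b-KO to the WT mean FPKM was 0.215.

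The fall of Ago2 kept its direction in all 14 alternatives run. As its groups did not overlap, only TPM scaling, quantile normalization or the length and GC correction could have reversed it. With TPM scaling the log2 fold change was smaller, at −0.85 (limma adjusted p = 0.0455). The call stayed past the threshold in 11 of the 14 alternatives. It was lost without WT replicate 1 (adjusted p = 0.0703), without WT replicate 2 (0.0679) and without Lsm14b-KO replicate 3 (0.0713). Without the filter on low values, the adjusted p was 0.0417. The annotated gene overlaps Chrac1 of the opposite strand at its 3′ end, but the locus deposited for Ago2 starts at 73101624 and does not reach Chrac1.

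The other Argonautes were low in either genotype. Ago1, Ago3 and Ago4 are neighbours on the minus strand of chromosome 4 (126435012 to 126468583, 126331704 to 126429556 and 126489541 to 126533472). Ago3 was at 0.681, 0.928 and 0.696 FPKM in WT and at 0.617, 0.840 and 0.834 FPKM in Lsm14b-KO replicates 1 to 3, from an estimated 19.5 to 51.4 fragments. Its means of 0.768 ± 0.138 and 0.763 ± 0.127 FPKM (SD, n = 3 each) differed by less than the spread between libraries. With no filter on low values, its log2 fold change was −0.0037 (95% interval −0.40 to 0.39, limma adjusted p = 0.993). With TPM scaling, the difference of its mean log2 values was 0.33, Lsm14b-KO over WT, so no direction is given. Ago4 had listed values of 0.120, 0.0352 and 0 FPKM in WT and of 0.0606, 0 and 0 FPKM in Lsm14b-KO libraries, which is at most an estimated 2.9 fragments in a library. Ago1 was listed at 0 in all 6 libraries, where a fragment would have been worth 0.0175 to 0.0378 FPKM.

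The make-up of the Argonaute pool, as shares of the summed Ago1 to Ago4 FPKM, was set side by side. Ago2 took 77.8%, 73.3% and 70.2% of the summed Ago1 to Ago4 FPKM in WT replicates 1 to 3, and 53.5%, 22.9% and 37.2% in Lsm14b-KO replicates 1 to 3. Ago3 took 18.8%, 25.7% and 29.9% in WT, and 42.3%, 77.1% and 62.9% in Lsm14b-KO FGOs. Ago2 was thus above Ago3 in all WT libraries and in Lsm14b-KO replicate 1, and below it in Lsm14b-KO replicates 2 and 3. The summed Argonaute FPKM was 3.614, 3.604 and 2.333 in WT, and 1.46, 1.09 and 1.33 in Lsm14b-KO libraries. The groups did not overlap for the Ago2 share or the sum, and each exact two-sided permutation test gave p = 0.10, the smallest possible with 3 libraries against 3. With Ago3 at about the same FPKM in either genotype, the share and the sum mostly restate the fall of Ago2. They are not separate results.

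**Figure D3:**
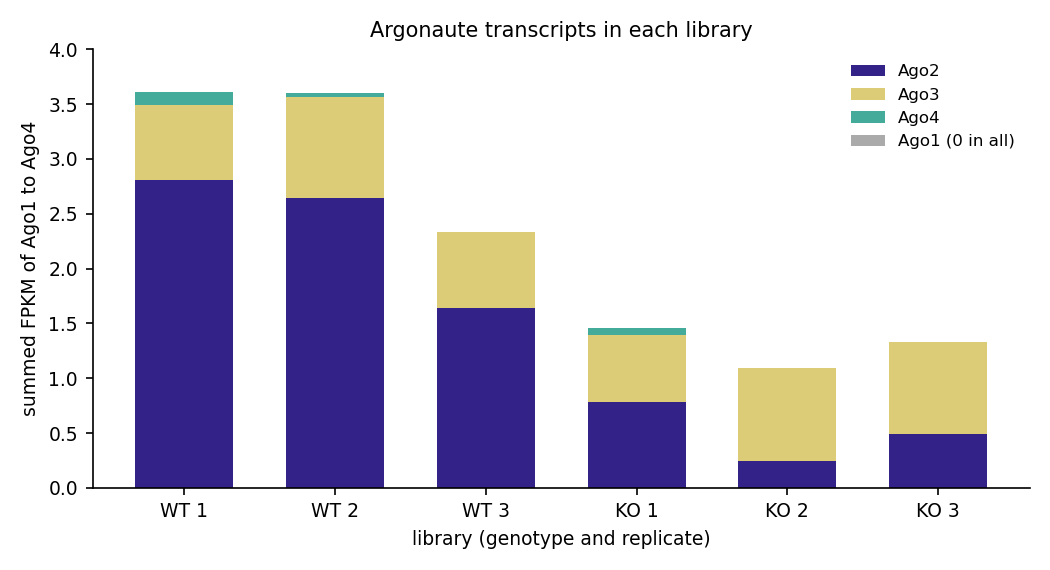
Stacked FPKM of the 4 Argonautes in each library, with Ago2 at the bottom, then Ago3 and Ago4, and Ago1 at 0 in all. The bars of WT libraries reach 2.33 to 3.61 FPKM and consist mostly of Ago2, and those of Lsm14b-KO libraries reach 1.09 to 1.46 FPKM, with an Ago3 part of about the same height as in WT.

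Since Dicer1 rose and Ago2 fell, the ratio of their FPKM moved further than either. It was 5.62, 6.53 and 14.8 in WT replicates 1 to 3 and 34.2, 491 and 196 in Lsm14b-KO replicates 1 to 3. The ratio of Dicer1 to Tarbp2 was 11.2, 7.01 and 11.3 in WT and 16.1, 73.8 and 131 in Lsm14b-KO FGOs. Neither ratio overlapped between the genotypes (exact two-sided permutation p = 0.10 each, the smallest possible). For Dicer1 over Ago2 this outcome was fixed in advance, because neither gene overlapped between the genotypes and they moved in opposite directions. That ratio therefore restates the results on Dicer1 and Ago2 and adds no support to them. A ratio within a library does not depend on its total, but these ratios and shares were chosen after the values of the genes had been seen.

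By level, FPKM being a measure per length, the order in WT FGOs was Dicer1, Ago2, Tarbp2, Ago3, Drosha, Dgcr8 and Ago4, with Ago1 and Xpo5 at 0. Ago2 and Tarbp2 overlapped there, as did Drosha, Dgcr8 and Ago4, while Dicer1 and Ago3 were each clear of their neighbours. In Lsm14b-KO FGOs the order was Dicer1, Tarbp2, Ago3, Ago2, Drosha, Dgcr8, Ago4 and Xpo5, with Ago1 at 0. Ago2, Ago3 and Tarbp2 all overlapped with one another in the KO libraries. The genes from Drosha down also overlapped among themselves, except for Drosha and Xpo5. Drosha was at 0.0597 FPKM or more in the KO libraries, and Xpo5 at 0.0373 FPKM or less. Over all 9 genes, the median difference in mean log2(FPKM + 1) was −0.04, beside a median of −0.08 over all tested genes. Most of the 9 genes stayed under 1 FPKM and were not tested, and at such levels log2(FPKM + 1) holds differences near 0. The medians are thus over unlike sets, and nothing is read from their nearness.

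The genes whose pattern over the 6 libraries was most like that of Dicer1 were Ptges3, Cd164 and Larp4b. Likeness was the root mean square difference of log2(FPKM + 1) centred on the WT mean, over 5008 genes, and it was 0.128, 0.132 and 0.136. Ptges3, the HSP90 co-chaperone p23, was at 75.9, 84.4 and 96.7 FPKM in WT and at 123, 457 and 423 FPKM in Lsm14b-KO libraries, again with replicate 1 nearest to WT. The genes most like Ago2 were Pinx1, Zcrb1 and Slain1, at 0.0818, 0.0916 and 0.110. Pinx1, a telomerase inhibitor, was at 12.4, 11.1 and 8.29 FPKM in WT and at 4.69, 3.10 and 4.67 FPKM in Lsm14b-KO libraries.

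Other genes of the small RNA pathways were followed in 7 lists of 45 genes, of which 21 reached 1 FPKM in some library. Of these 21, 6 rose, 1 fell and 14 did not pass the test (limma, adjusted p), beside 6.38% higher and 15.2% lower over all tested genes. Their median log2 fold change was 0.68, beside −0.08 over all tested genes, and nothing particular to the lists is read from this. Silencing effectors that work with Argonaute had 3 of 10 genes tested. Ddx6, a helicase of translational repression and P-bodies, had listed values of 0, 0 and 0.340 FPKM in WT and of 0.825, 3.48 and 1.35 FPKM in Lsm14b-KO replicates 1 to 3. It passed the test (log2 fold change 1.28, SE 0.340, adjusted p = 0.0347), but only the Lsm14b-KO libraries brought it past the filter of 1 FPKM, and without that filter the adjusted p was 0.083. These are RNA values, and by western blot the authors found DDX6 protein nearly lost from Lsm14b-KO oocytes. Eif4e2, a cap-binding translational repressor, fell from 3.71 ± 1.23 to 1.18 ± 0.674 FPKM (mean ± SD, n = 3), a log2 fold change of −1.12 with an SE of 0.289 (adjusted p = 0.0313). With TPM scaling its log2 fold change was −0.71, and the call was lost (adjusted p = 0.102). The GW182 scaffold genes Tnrc6a, Tnrc6b and Tnrc6c, which link Argonaute to deadenylation, were under 1 FPKM in all libraries.

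The cofactors of Drosha and of primary transcripts had 4 of 7 genes tested. Ddx5, a helicase of the Drosha complex, rose from 7.23 ± 0.679 to 15.7 ± 1.02 FPKM, a log2 fold change of 1.02 with an SE of 0.221 (adjusted p = 0.0181), while Srsf3, a splicing factor that marks hairpins for cutting, was at 20.9 ± 2.77 and 31.27 ± 1.081 FPKM (adjusted p = 0.129). Among genes for duplex RNA binding and editing, 2 of 5 were tested and none passed. The most abundant were Stau1, with 8.34 ± 0.160 FPKM in WT and 12.9 ± 2.15 FPKM in Lsm14b-KO FGOs (adjusted p = 0.109), and Ilf2, with 2.49 ± 0.790 and 3.59 ± 0.568 FPKM (adjusted p = 0.218). For nuclear export, Ran, the GTPase that exportin-5 depends on, rose from 19.8 ± 3.75 to 50.6 ± 12.2 FPKM, a log2 fold change of 1.30 with an SE of 0.298 (adjusted p = 0.0220), and Xpo1 was at 0.720 ± 0.0977 and 1.19 ± 0.308 FPKM (adjusted p = 0.231).

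In small RNA tailing and turnover, 5 of 13 genes were tested and none passed. Tsn and Tsnax, which form the nuclease complex known to clear passenger strands, were at 14.9 ± 1.20 against 19.3 ± 2.70 FPKM and at 3.06 ± 0.968 against 6.72 ± 4.08 FPKM (WT against Lsm14b-KO, adjusted p = 0.306 and 0.148). The chaperones that open Argonaute for loading had 4 of 5 genes tested. Hspa8, the constitutive HSP70, rose from 6.85, 9.82 and 16.8 FPKM in WT replicates 1 to 3 to 28.1, 155 and 106 FPKM in Lsm14b-KO replicates 1 to 3, and Ptges3 also rose (log2 fold changes of 2.77 and 1.74, SE 0.621 and 0.511, adjusted p = 0.0204 and 0.0459). Hsp90aa1, the most abundant gene of all the lists, was at 592 ± 47.3 and 1259.9 ± 450.01 FPKM (adjusted p = 0.0752). Copies near-identical to Hspa8, Ptges3, Hsp90aa1, Ran, Ddx5, Srsf3 and Tsnax exist in the genome, so their reads could have been split.

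Of 3 genes known to share sequence with oocyte endo-siRNAs, Kif4 was tested. It rose from 8.24 ± 0.440 to 16.7 ± 2.65 FPKM, a log2 fold change of 0.93 with an SE of 0.233 (adjusted p = 0.0292). Ppp4r1 was at 0.164, 0.144 and 0.159 FPKM in WT and at 0.247, 0.674 and 0.529 FPKM in Lsm14b-KO replicates 1 to 3, under the level for a test. The row of Kif4 overlaps Pdzd11 on the opposite strand at its end.

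The calls among the listed genes depended on which library was left out. None of the 7 was left in limma without WT replicate 1, 2 or 3 or without Lsm14b-KO replicate 3, where 10, 8, 11 and 9 of the genes had an unadjusted p under 0.05. Without Lsm14b-KO replicate 2, 3 of the 7 were kept (Ddx5, Ran and Hspa8), and without Lsm14b-KO replicate 1 all 7 were, with 6 listed genes added. Without the filter on low values, 2 of the 7 were kept (Ddx5 and Ran). All 7 genes kept their direction in every alternative run, but none of them overlapped between the genotypes. Leaving out a library, or changing the pseudocount, filter, trend or block, could therefore not reverse the direction of any of them.

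**Figure D4:**
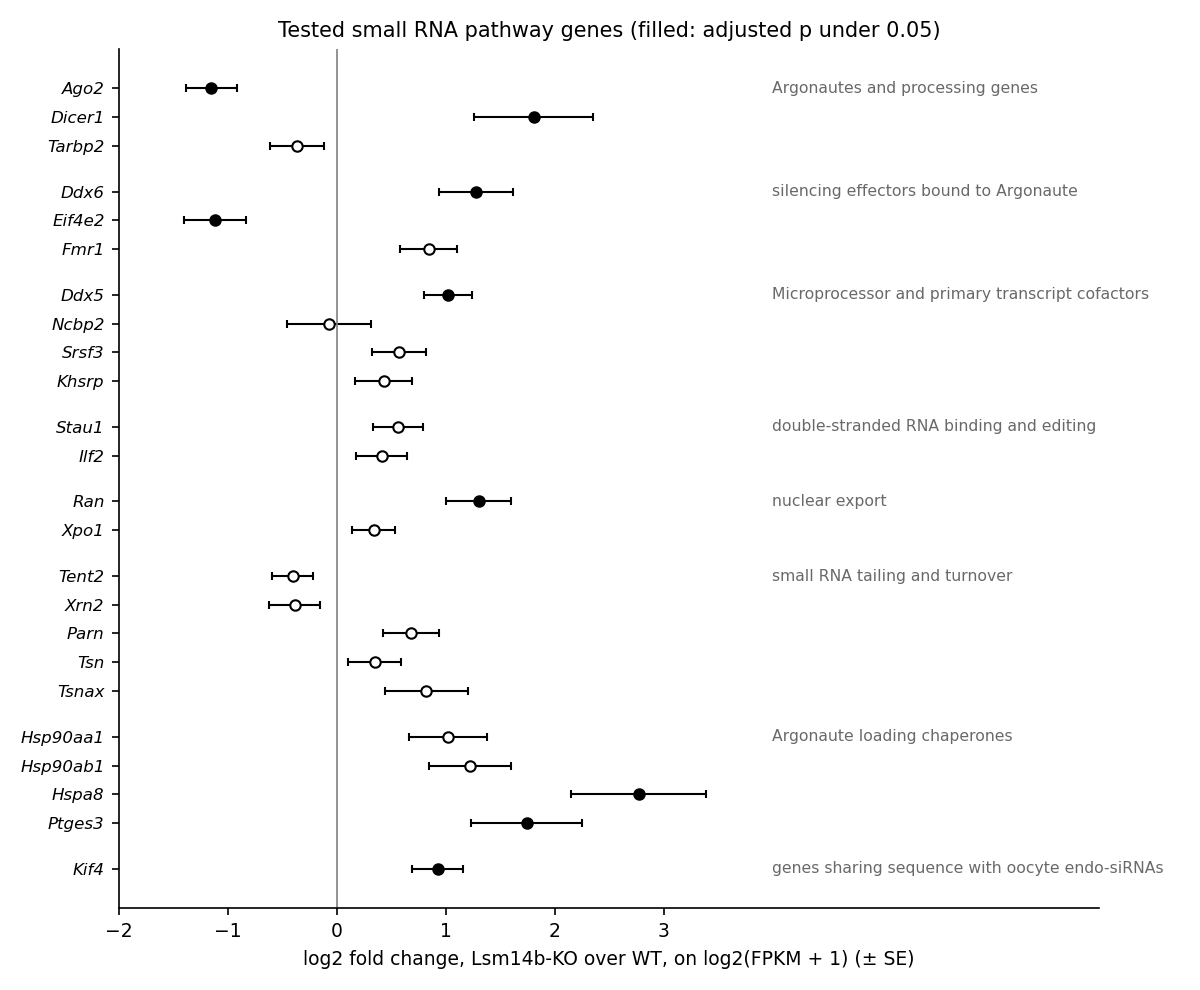
Log2 fold change of Lsm14b-KO over WT on the log2(FPKM + 1) scale, with SE bars (n = 3 each), for the 3 tested Argonaute and processing genes and the 21 tested genes of the 7 lists. Filled points have an adjusted p under 0.05 (limma). Ago2 and Eif4e2 are the filled points left of 0, and Dicer1, Ddx6, Ddx5, Ran, Hspa8, Ptges3 and Kif4 are those right of it.

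**Figure D5:**
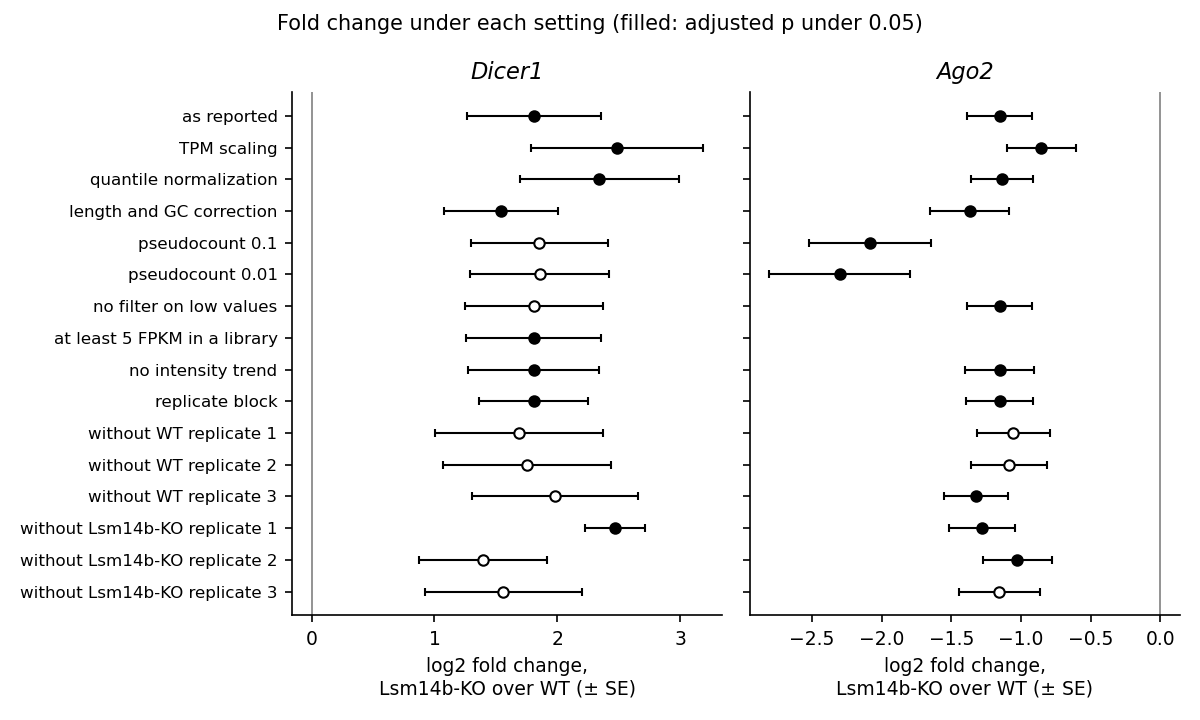
Log2 fold change (± SE) of Dicer1 and Ago2 as reported and under each alternative, filled where the adjusted p was under 0.05. Every Dicer1 value is above 0 and every Ago2 value below 0, and leaving out Lsm14b-KO replicate 1 gives Dicer1 the shortest bar, at 2.47. Ago2 has no value where at least 5 FPKM was asked for, since no library reached it.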

How the data were processed

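RNA of 20 GV-stage FGOs per library was amplified by Smart-seq2. The sample labels name the NEBNext Ultra kit and the series description the KAPA Hyper Prep kit, and neither states strand. Per the labels and methods, the authors aligned reads to mm10 (TopHat2 2.0.13) and made FPKM values with Cufflinks 2.2.1. The deposited FPKM table holds 6 library columns and was used as deposited. Its columns of fold changes, p-values and q-values from the authors' own comparison were not used.

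The 6398 genes that reached 1 FPKM in some library were tested with limma 3.58.1 (R 4.3.3) on log2(FPKM + 1), with an intensity trend, genotype as the only term, and Benjamini-Hochberg adjustment over all of them (threshold 0.05). Two-sided exact permutation tests over the 6 libraries cannot give less than 0.10. The fit was tested on simulated data. Fragments were estimated from the smallest step of FPKM times length, over genes with a transcript of at least 3000 nt. Of values under 5.5 fragments, 65.3% to 70.4% lay within 0.1 of a whole number, so fragment numbers are estimates and no count test was run. Positions are those of GENCODE vM21 (GRCm38, the assembly of mm10). Near-identical copies were sought with blastn 2.17.0 (at least 95% identity over 200 nt).

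The genes, the 7 lists and the markers were chosen with earlier results of these data known. Named were all 9 genes, Lsm14b, listed genes past the threshold, the 2 most abundant of each list, the 3 genes most like each called gene, and markers of other cell types above 1 FPKM. Alternatives were TPM scaling, quantile normalization, a length and GC correction, pseudocounts of 0.1 and 0.01, no filter and a filter of 5 FPKM, no intensity trend, a replicate block, and leaving out each library.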

Additional observations from a re-analysis of the deposited data

How the results depend on the processing

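Of the 9 Argonaute and processing genes, 2 were past the threshold as reported, 1 with a pseudocount of 0.1 or 0.01, without the filter, or with a filter of 5 FPKM, and 0 to 2 when a library was left out. In all settings that kept both genes, including those with 0 calls in limma, 2 had an unadjusted p under 0.05. Dicer1 was lost with a pseudocount of 0.1 (adjusted p = 0.0513) or 0.01 (0.0597) and without the filter (0.113). Over the alternatives its log2 fold change ranged from 1.39 to 2.49 (adjusted p 0.000693 to 0.170), and that of Ago2 from −2.30 to −0.85 (adjusted p 0.0058 to 0.0713). Tarbp2 had a log2 fold change of 0.0574 with TPM scaling, the opposite sign of the reported −0.37. The median log2 fold change of all tested genes was −0.08 as reported, 0.40 with TPM scaling, 0.07 with quantile normalization and 0.10 with the length and GC correction. Relative to that median, Dicer1 was at 1.88, 2.08, 2.27 and 1.44, Ago2 at −1.08, −1.25, −1.20 and −1.47, and Tarbp2 at −0.29, −0.34, −0.43 and −0.28. Of the listed pathway genes, 7 were past the threshold as reported, 11 with each of those 3 corrections (Eif4e2 being lost with TPM scaling), 2 without the filter, and 0 to 13 when a library was left out. Over all genes, 1383 were past it (408 higher and 975 lower), 1319 with TPM scaling (833 higher and 486 lower), 1275 with quantile normalization (540 and 735), 1433 with the length and GC correction (646 and 787), 720 without the filter, and 315 to 2898 when a library was left out. Lsm14b stayed past the threshold in all 14 alternatives run. The cause of these changes was not tested.

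The replicate numbers are not stated to mark a shared animal or day, and same-numbered libraries did not deviate together (r = 0.19, −0.13 and 0.02 for numbers 1 to 3). With the replicate block, 1244 genes, 2 of the 9 genes and 6 listed genes were past the threshold, Kif4 being lost (adjusted p = 0.0587), and Lsm14b had a log2 fold change of −1.85.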

Other observations

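The table measures long transcripts, and mature microRNAs, the cargo of Argonautes, were not read out by it: of 1155 rows named as microRNA genes, 2 were above 0 in any library. A host transcript of a microRNA could be followed. Mir22hg (chromosome 11, 75461538 to 75466690, GRCm38) was chosen after its values had been seen. It was at 10.1, 8.39 and 7.98 FPKM in WT replicates 1 to 3 and at 1.01, 0.260 and 0.617 FPKM in Lsm14b-KO replicates 1 to 3. All 3 WT values lay far above all 3 Lsm14b-KO values, and the log2 fold change on the log2(FPKM + 1) scale was −2.61 (SE 0.234, limma adjusted p = 0.0011). It stayed past the threshold in all 15 alternatives run. The hairpin of miR-22 lies on the plus strand inside this locus, at chr11:75463716-75463810. Its mature arms, from RefSeq, are printed to show which guides the host encodes, with the seed (bases 2 to 8) in capitals:
mmu-miR-22-5p: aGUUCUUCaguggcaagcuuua
mmu-miR-22-3p: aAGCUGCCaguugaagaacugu
The FPKM of the host is not the level of either mature arm, which was not measured here.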
